A study of Mus musculus with 6 samples.

Results

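Stretches of open chromatin at least 3000 bp wide were described in livers of the inbred mouse strain C57BL/6. They were chosen by width and by calls: they were found by merging the DNase I hotspots of 6 libraries wherever hotspots overlapped by 1 bp on chromosomes 1 to 19, and by keeping the merged regions that were called in every library. Of 72722 merged regions, 36088 were called in all 6 libraries, and 717 of these (1.99%) reached 3000 bp. They are called wide regions here, and the other 35371 shared regions are called narrower regions. The rule used the calls and the widths, so widths, numbers of hotspots and covered lengths are given as a description without a test.

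Both groups were whole livers of the same strain from mice kept under a 12-h light-dark cycle and killed at 6:00 in the morning, when the lights came on. The fed group (3 libraries) ate ad libitum, and the fasted group (3 libraries) had no food for 24 h. Nuclei of fresh liver were digested with DNase I at 40 U/ml, and DNA of 100 to 500 bp was sequenced. The labels number the replicates but do not say that they are separate animals, and the p-values below rest on the spread among these libraries, which may be partly technical. Whole liver holds several cell types, so fewer open cells and less opening per cell cannot be told apart. Marker genes of liver cells were not checked, because no annotation of the files' build, mm9, was used here, and regions are therefore given by position without gene names.

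DNase I cuts DNA more readily where nucleosomes are displaced by bound proteins, as at active promoters and enhancers. A single element usually opens a short stretch, and long open stretches arise where several elements lie close together or where opening spreads over a transcribed gene's start. In liver such clustered elements are known at highly expressed and at metabolically regulated genes, and fasting activates nuclear receptors and other factors that act through enhancers.

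Each hotspot carries 2 values. The maximum tag density is the height of its tallest point, and the average tag density is the mean over its length, both on a scale of the authors that the sources used here do not give. Values of single libraries are given in replicate order throughout. Relative depth, read from the step between possible maxima, was 1.02, 1.00 and 1.64 in the fed libraries and 1.32, 1.90 and 1.24 in the fasted libraries, so each group held 1 deep library. The lists held 48164 to 61490 hotspots on these chromosomes, the longest lists being those of fed replicate 3 and fasted replicate 2. Depth therefore differed more within the groups than between them.

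The wide regions were tall as well as wide, but their average density lay further below their maximum than in narrower regions. Their mean maximum density had a median of 68.7, against 23.6 in narrower regions, and their mean average density a median of 17.3, against 8.76. The ratio of average to maximum had a median of 0.265, with 5th and 95th percentiles of 0.203 and 0.331, against a median of 0.381 in narrower regions. Among regions of like height the gap was smaller, as the 50 narrower regions nearest to each wide region in maximum density had a median ratio of 0.353. The match in height was close for most wide regions but not for all. Between a wide region and the farthest of its 50, log2 maximum density differed by a median of 0.0044 and by 1.66 at most. The ratio of a wide region was below that of its 50 nearest in 713 of 717 cases and above it in 4. Width entered the choice of the regions and the average is taken over the length, so this gap is a description of their shape.

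**Figure D1:**
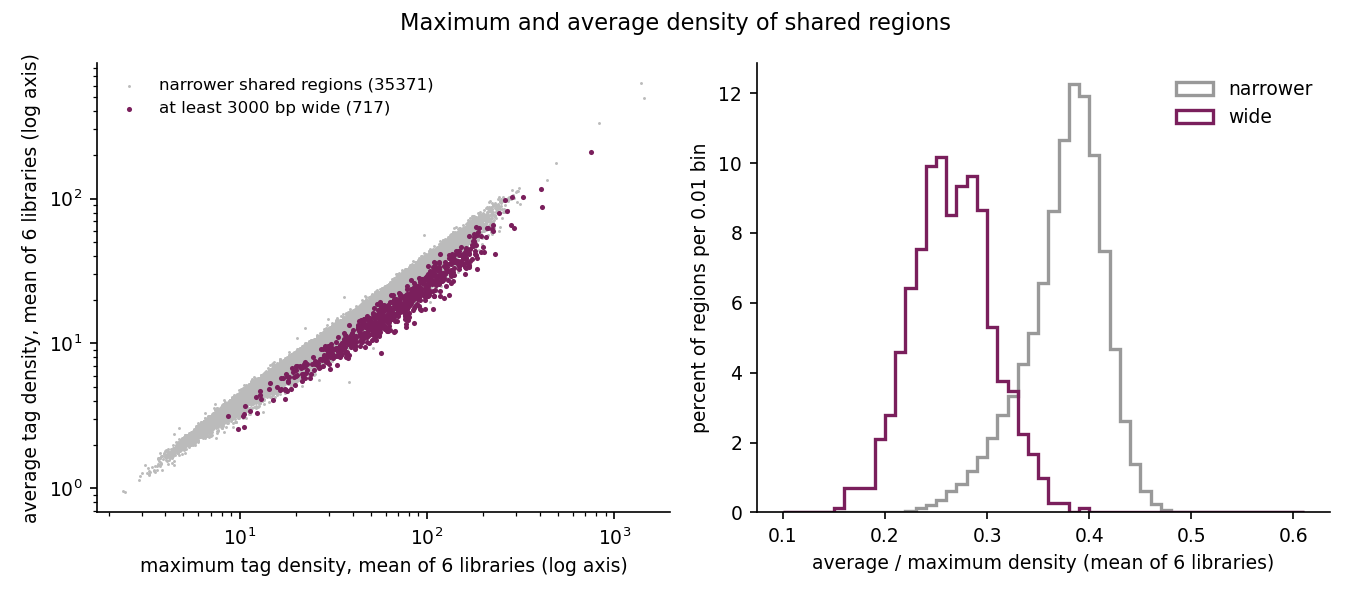
Left, average against maximum tag density (both log axes, mean of 6 libraries) for the 717 wide regions in purple and the 35371 narrower shared regions in grey; right, percent of regions per bin of 0.01 in the ratio of average to maximum. The wide regions lie along the lower edge of the grey cloud, with a median ratio of 0.265 against 0.381.

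The shape was alike in all 6 libraries. The median ratio in wide regions was 0.264, 0.264 and 0.265 in the fed libraries and 0.261, 0.263 and 0.261 in the fasted ones. In narrower regions the library medians ran from 0.372 to 0.383. Within each library log2 maximum and log2 average rose together across wide regions, with Pearson's r from 0.963 to 0.974 (n = 717 regions) and slopes from 0.889 to 0.953, against r from 0.990 to 0.992 across narrower regions. Both values of a point come from the same tags, and regions of a library share its depth, so these correlations describe the lists and carry no p-value. The tallest hotspot of a wide region alone had a library median ratio of 0.285 to 0.324, with the lowest values in the deep libraries.

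Among the wide regions, width said little about height and something about shape. Pearson's r between width and mean maximum density was 0.03 (n = 717 regions). Between width and the ratio of average to maximum it was -0.34, and between maximum density and that ratio it was also -0.34. The 57 regions of at least 5000 bp had a median ratio of 0.228 and held 2.36 hotspots per library on average, while the 358 regions under 3500 bp had a median ratio of 0.276 and held 1.61. The median width was 3502 bp (quartiles 3187 and 4023 bp), and the widest region spanned 9014 bp.

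Regions at the ends of the ratio's range differed in layout. The lowest ratio, 0.155, belonged to chromosome 2 (63932228 to 63937346, 5119 bp), where maximum density was 59.6, 57.7 and 51.04 in fed and 69.8, 41.05 and 61.8 in fasted livers while average density stayed between 7.24 and 10.3. It was a row of hotspots, with 5, 4 and 1 in the fed libraries and 5, 2 and 5 in the fasted ones, and the single hotspot of fed replicate 3 covered all 5119 bp. The next lowest ratios were 0.163 on chromosome 5 (117564663 to 117572200), 0.165 on chromosome 19 (46573897 to 46579100), 0.166 on chromosome 17 (64949264 to 64954267) and 0.167 on chromosome 4 (44992096 to 44998337). All of these 5 regions exceeded 5000 bp.

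High ratios came from regions of very different height. Chromosome 6 (121792673 to 121795699, 3027 bp) had the highest, 0.400, with maximum densities of only 9.19, 9.74 and 5.04 in fed and 13.9, 29.6 and 19.1 in fasted livers. Chromosome 16 (38087268 to 38090368, 3101 bp), at 0.376, was a tall single hotspot in every library, with maxima of 246, 249 and 233 in fed and 277, 266 and 293 in fasted livers and averages of 83.3 to 114. The other 3 were low or changed with fasting, at 0.372 on chromosome 4 (3007217 to 3011744), 0.366 on chromosome 12 (16591819 to 16595258) and 0.363 on chromosome 4 (115155706 to 115159342). In 4 of the 5, all but the tall region of chromosome 16, the bases covered by every library were 7.14% to 16.4% of the width, so each was wide through hotspots of some libraries only.

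In 4 of the 6 libraries most wide regions held more than 1 hotspot, and in both deep libraries most held 1. The 717 regions held 1490, 1394 and 992 hotspots in the fed libraries and 1339, 1011 and 1432 in the fasted ones. A single hotspot filled 189, 238 and 495 of them in the fed libraries and 262, 471 and 213 in the fasted libraries, and at least 4 hotspots lay in 40, 33 and 6 and in 22, 6 and 34. The deepest library of each group thus split wide regions least. Across the 50 narrower regions nearest in height the mean was 1.07 hotspots per library, against 1.38 to 2.08 in wide regions.

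**Figure D2:**
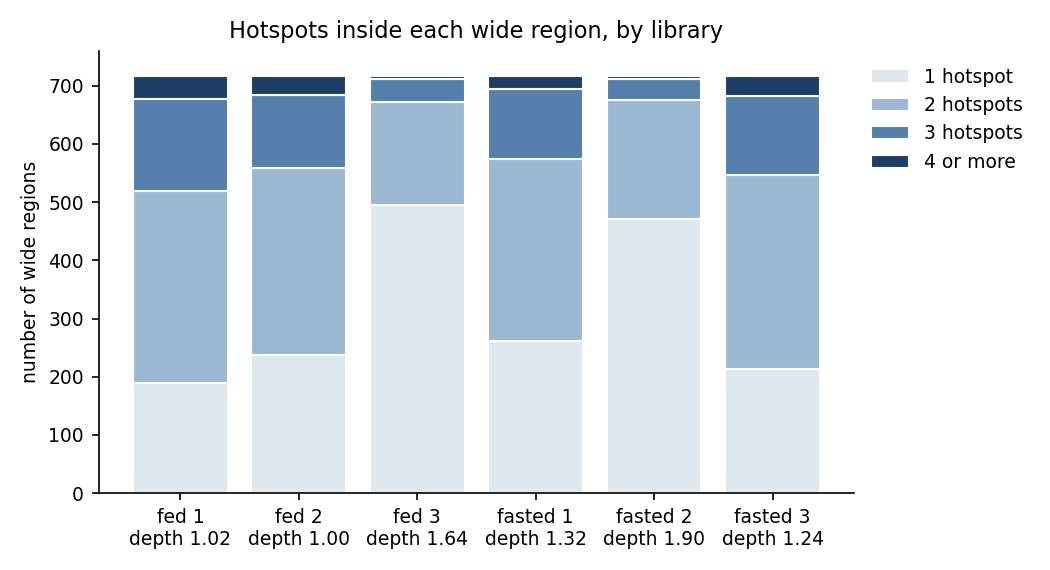
Number of wide regions (stacked bars, 717 per library) that held 1, 2, 3 or at least 4 hotspots in each library, with the relative depth under each name. The 2 libraries of greatest depth show 495 and 471 regions with 1 hotspot, and the other 4 libraries show 189 to 262.

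Few of the regions were a single unbroken block everywhere. In 80 wide regions (11.2%) each of the 6 libraries had exactly 1 hotspot, whereas 88.6% of narrower regions did. A single hotspot of at least 3000 bp was present in no library for 97 regions, in exactly 1 library for 290, and in all 6 for 41. Both deep libraries had 1 hotspot in 335 regions, and in 74 of these every other library had several. The reverse, several hotspots in both deep libraries and 1 in each of the others, occurred in 1 region. Whether depth sets the joining of hotspots was not tested with libraries thinned to 1 depth.

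The libraries agreed on a core and differed at its edges. The median share of a wide region's width covered by hotspots was 79.9%, 83.5% and 96.8% in the fed libraries and 86.5%, 96.9% and 83.4% in the fasted ones. Bases covered by all 6 libraries made up a median of 70.9% of the width and formed 1 segment in 174 regions, 2 in 306 and 3 or more in 236. One region, on chromosome 2 (31327802 to 31330831), had no base covered by every library, although each library called part of it. The tallest hotspots of the 6 libraries shared a base in 641 regions and did not in 76.

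Since hotspots of both groups were merged, a region could reach 3000 bp through the group in which it was more open. Merging the hotspots of each group separately left 316 regions at least 3000 bp wide in both groups, 167 only in the fed group, 179 only in the fasted group and 55 in neither. These counts matter for every comparison of the groups below, and the p-values of single regions take no account of this choice. Counts of passing changes of maximum and of average density are therefore also given for the 316 regions alone. So are the median change of maximum density and the counts of separated hotspot numbers and covered lengths. Other summaries were not repeated for the 316. The width limit itself fell in a continuous range. Just inside it, chromosome 10 (126505856 to 126508855) and chromosome 3 (153605365 to 153608364) were 3000 bp wide, with mean maximum densities of 54.4 and 179. Just outside, chromosome 4 (44078203 to 44081201) and chromosome 2 (103319518 to 103322516) were 2999 bp wide, with 39.1 and 24.97.

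The fasting comparison asked which wide regions became more or less accessible after 24 h without food. Maximum density rose in 71 wide regions and fell in 30 (limma, adjusted p under 0.05 over all 36088 shared regions). That is 9.90% and 4.18% of the wide regions, where 8.25% of all shared regions rose and 7.73% fell, so in either direction 14.1% of wide regions and 16% of all passed. At an unadjusted p under 0.05 there were 194 wide regions (27.1%), beside 28% of all. The 50 nearest narrower regions of each wide region, pooled, rose in 10.1% and fell in 5.01% of cases. Rises outnumbered falls in narrower regions of that height too. In the 316 regions that were wide in each group alone, 23 rose (7.28%) and 13 fell (4.11%), while of the 179 that were wide in the fasted group only, 37 rose (20.7%) and 3 fell (1.68%). Of the 167 that were wide in the fed group only, 7 rose (4.19%) and 11 fell (6.59%). The split between rises and falls depended on the scaling: without centring it was 47 to 35, and with quantile normalization 49 to 38. A fit of the upper 50% of regions, which held only 660 of the 717 wide regions, gave 46 to 37. Without fed replicate 1, only 17 regions fell.

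The typical wide region changed little, and by about as much as narrower regions of its height. The median log2 change of maximum density was 0.13 over the wide regions, 0.12 over their nearest narrower regions and 0.04 over all shared regions, on the log2(density + 1) scale. The median of the difference between each wide region and its nearest 50 was 0.0037. Absolute changes were also alike, with medians of 0.19 in wide regions and 0.20 in the nearest narrower ones. These medians depended on the scaling: over the wide regions it was 0.05 without centring and 0.01 with quantile normalization, and over all shared regions it was -0.04 without centring. Over the 660 wide regions in the fit of the upper 50% of regions it was 0.04.

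Average density passed in fewer wide regions. It rose in 55 wide regions and fell in 23, or 7.67% and 3.21%, against 7.82% and 7.64% of all shared regions. In either direction 10.9% passed, below 14.0% of the nearest narrower regions and 15.5% of all. At an unadjusted p under 0.05 there were 181 (25.2%), beside 27.9% of all. The median change was 0.11, and the median difference from the nearest 50 was -0.0017. The split between rises and falls depended on the scaling, at 29 to 27 without centring and 40 to 35 with quantile normalization. It turned to 33 to 41 in the fit of the upper 50% of regions, which held 660 of the wide regions. Of the 316 regions wide in each group alone, 18 rose and 8 fell. Leaving out fed replicate 1 or fed replicate 3 each left 36 rises.

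Both densities mostly moved together. Maximum and average both rose in 45 wide regions and both fell in 19, the maximum alone passed in 26 rises and 11 falls, the average alone in 10 rises and 4 falls, and no region passed in opposite directions. Across wide regions the log2 changes of the 2 densities had r = 0.92 (n = 717), and across narrower regions r = 0.98 (n = 35371). Points share libraries and tags, so this is a description. Tested directly, the ratio of average to maximum changed in 0 wide regions (limma, adjusted p under 0.05), where 0.0222% of all shared regions passed, 0.0166% upward and 0.00554% downward. At an unadjusted p under 0.05 there were 86 wide regions (12.0%), against 9.79% of all. The standard error of the log2 ratio change had a median of 0.09 in wide regions and 0.06 in narrower ones, so smaller changes were detectable in the narrower regions.

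**Figure D3:**
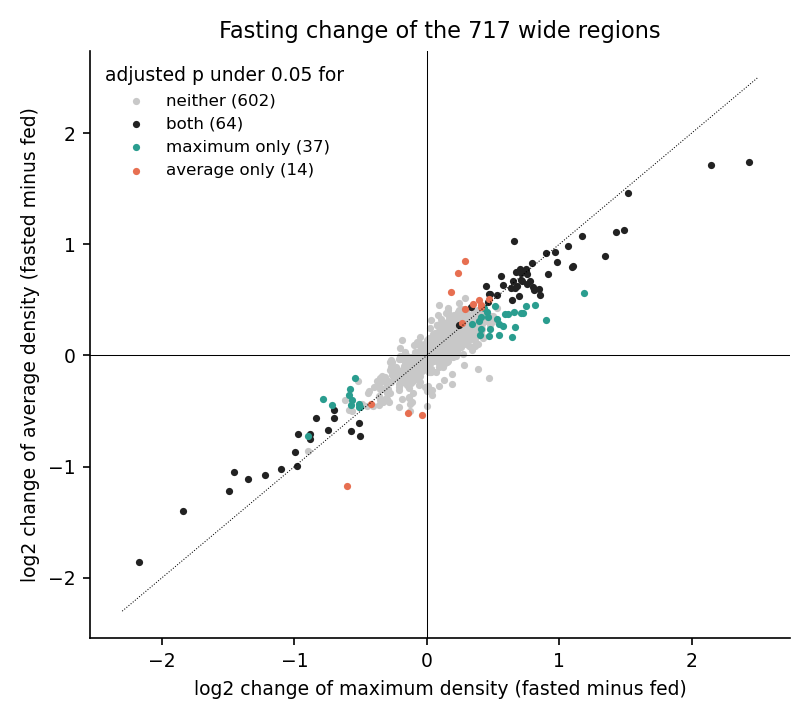
Each point is 1 of the 717 wide regions, placed by its log2 change (fasted minus fed) of maximum density (x axis) and of average density (y axis), and coloured by which of the 2 passed an adjusted p of 0.05; the dotted line marks equal change. The 64 regions that passed for both lie near the line, with the strongest rises and falls of the maximum slightly on its shallow side.

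Falls were fewer among the taller wide regions. In the lowest of 4 equal classes by mean maximum density, 18 of 180 rose and 14 fell. The next class had 11 rises and 10 falls among 179, and the one above it had 29 rises and 3 falls among 179. In the highest class 13 rose and 3 fell of 179. Narrower regions of the same height ranges fell in 9.60%, 6.05%, 3.28% and 1.31% of cases from low to high, so the decline of falls with height was shared. They rose in 8.21%, 11.5%, 10.7% and 8.42%, against 10%, 6.15%, 16.2% and 7.26% of the wide regions. By width, 11 of the 57 regions of at least 5000 bp rose (19.3%) and 3 fell (5.26%). Of the 358 regions under 3500 bp, 32 rose (8.94%) and 13 fell (3.63%), beside 8.25% and 7.73% of all shared regions. Regions wide through 1 group only are included in these width counts. Differences between these classes were not tested.

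Among wide regions that rose, the median log2 change was 0.68 and the largest 2.43, with 11 at 1 or more. On the centred log2 scale, groups did not overlap in 67 of the 71, beside 17.4% of all shared regions whose fasted libraries all lay above the fed ones. The test used these same values, so the separation follows largely from the choice and adds no support, here and for the falls below. Over all 717 wide regions, every fasted library lay above every fed one in 25.1% and below in 7.53%. Covered length was greater in every fasted than in every fed library in 35 of the 71 and smaller in 0. Since 37 of the 71 were wide in the fasted group only, longer fasted coverage among them was partly fixed by the rule, and nothing is read from this count. Of the 30 that fell, groups did not overlap in 27 on the same scale, beside 14.3% of all shared regions whose fasted libraries all lay below the fed ones. Their median change was -0.76, and covered length was smaller in every fasted library in 11 and greater in 1, with the same limit.

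The strongest rise was on chromosome 8 (112518303 to 112525608, 7306 bp). Maximum density was 9.56, 21.7 and 15.8 in the fed libraries and 83.7, 95.1 and 65.4 in the fasted libraries, or 15.7 ± 6.09 and 81.4 ± 15.0 (SD, n = 3 each). Every fasted library lay far above every fed one. The log2 change was 2.43 (SE 0.25, limma adjusted p = 7.5e-07), and that of average density was 1.74 (SE 0.22, limma adjusted p = 4.9e-05). Hotspots covered 1381, 2290 and 2382 bp in fed livers, all in the right-hand part, and 6411, 7306 and 5327 bp in fasted livers. The fed hotspots alone spanned at most 2521 bp, so this region counted as wide only through the fasted libraries.

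On chromosome 4 (115155706 to 115159342, 3637 bp), each library had a single hotspot, which reached 3000 bp in the fasted libraries only, so its length difference was fixed by the rule. Its maximum density was 21.3, 12.7 and 25.2 in fed and 99.9, 59.4 and 95.7 in fasted livers, with no overlap, and its length was 902, 695 and 853 bp against 3398, 3330 and 3189 bp. The log2 change of the maximum was 2.14 (SE 0.22, limma adjusted p = 8.3e-07). Another region further along the same chromosome (115278780 to 115282257) rose by 1.17, from 14.3, 16.1 and 20.8 to 47.4, 23.9 and 44.8, where the lowest fasted library was close to the highest fed one. A later one on chromosome 4 (122655632 to 122659026) rose by 1.10, from 55.2, 58.5 and 60.4 to 119, 95.9 and 146.

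Chromosome 6 held 4 of the 10 strongest rises. At 108405986 to 108409251 the maximum went from 31.6, 33.3 and 28.2 in fed to 102, 79.9 and 72.3 in fasted livers, a log2 change of 1.49 (SE 0.18, limma adjusted p = 4.1e-06). This was the single one of the 10 that was at least 3000 bp wide in each group alone, and its covered lengths overlapped between the groups. At 121839377 to 121842843 the change was 1.43, from 9.56, 14.2 and 13.5 to 33.2, 39.5 and 26.9. Shortly before it, the low region with the highest ratio (121792673 to 121795699) rose by 1.34, and this rise did not pass without both deepest libraries (0.76, limma adjusted p = 0.055). At 31062348 to 31065381 the maximum rose by 1.07, from 53.0, 42.7 and 28.2 to 87.7, 84.9 and 69.3.

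The remaining 2 of the 10 were low in fed livers. Chromosome 3 (98112800 to 98117652, 4853 bp) went from 11.8, 17.2 and 14.9 to 39.2, 31.4 and 55.7, a log2 change of 1.52 (SE 0.21, limma adjusted p = 3.7e-05), and its fed hotspots covered 655 to 2806 bp against 3046 to 4853 bp in fasted livers. No merged stretch of its fed hotspots exceeded 1912 bp, so its longer fasted coverage was largely fixed by the rule. Chromosome 13 (98009477 to 98012996) went from 12.5, 19.9 and 16.9 to 40.0, 37.5 and 31.2, a change of 1.19, while its average density missed the threshold (0.56, limma adjusted p = 0.058). In all, 9 of the 10 strongest rises were wide in the fasted group only, and 8 had longer coverage in every fasted than in every fed library. The count of 8 was thus partly fixed by the rule, and nothing is read from it.

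**Figure D4:**
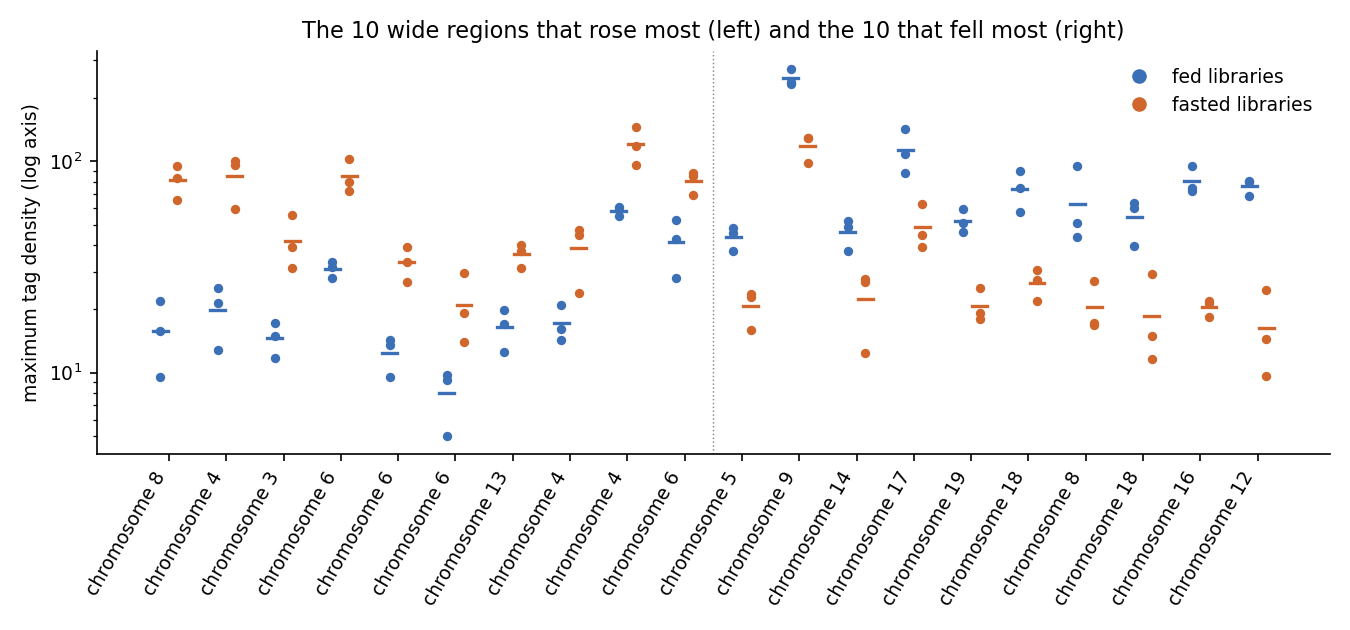
Maximum tag density (log axis) in the 3 fed (blue) and 3 fasted (orange) libraries for the 10 wide regions with the strongest rise, left of the dotted line, and the 10 with the strongest fall, right of it; points are libraries and short lines are group means. Fed and fasted points do not overlap in any of the 20 regions, which the choice of regions required.

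The strongest fall was on chromosome 12 (105580037 to 105587555, 7519 bp). Its maximum density was 79.4, 68.6 and 81.0 in fed and 14.5, 24.7 and 9.69 in fasted livers, or 76.3 ± 6.78 and 16.3 ± 7.65 (SD, n = 3 each). The groups were far apart, and the fasted libraries varied more in proportion. The log2 change was -2.17 (SE 0.26, limma adjusted p = 4.2e-06) and that of average density -1.86 (SE 0.22, limma adjusted p = 2.8e-05). Hotspots covered 6034, 5745 and 7519 bp in fed livers and 2046, 4513 and 1256 bp in fasted livers, and the tallest fasted hotspots lay in the right-hand part of the region. Merged within each group, the longest stretch of hotspots was 7519 bp in fed and 3792 bp in fasted livers.

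Chromosome 16 (18405415 to 18409463, 4049 bp) fell with little spread within groups. The maximum was 94.9, 74.9 and 72.1 in fed and 21.3, 18.4 and 21.8 in fasted livers. The groups were well separated. The log2 change was -1.84 (SE 0.17, limma adjusted p = 2.9e-07), and covered length went from 3092, 3529 and 4049 bp to 1044, 1898 and 1320 bp. No merged stretch of its fasted hotspots exceeded 1304 bp, so it counted as wide only through the fed libraries. Its shorter fasted coverage was therefore largely fixed by the rule.

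A tall region on chromosome 9 (107197935 to 107201400, 3466 bp) fell without narrowing out of the wide class. Its maximum was 273, 232 and 236 in fed and 129, 97.7 and 129 in fasted livers, or 247 ± 22.5 and 119 ± 18.1 (SD, n = 3 each). The log2 change was -0.98 (SE 0.11, limma adjusted p = 3.9e-06), and average density fell by 1.00. Covered length was 3148, 3168 and 3466 bp in fed and 2959, 3036 and 2856 bp in fasted livers, a small but complete separation. Chromosome 19 (37769373 to 37772844) was another fall at nearly constant length, from 59.2, 50.96 and 46.2 to 17.9, 19.1 and 25.1, with 3361 to 3397 bp covered in fed and 3059 to 3417 bp in fasted livers. Its log2 change was -1.22 (SE 0.18, limma adjusted p = 7.7e-05).

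Of the other strong falls, 2 lay on chromosome 18. At 36824867 to 36829088 the maximum fell by 1.497, from 60.3, 39.7 and 63.6 to 11.6, 29.4 and 14.8, and at 39521662 to 39524902 it fell by 1.35, from 75.02, 89.6 and 57.4 to 21.8, 27.4 and 30.6. The first of these is an exception among the falls, since its longest merged stretch of fed hotspots was 1395 bp and it reached 3000 bp through a 3985-bp hotspot of fasted replicate 2. Chromosome 8 (121967602 to 121971921) fell by 1.46, with fed values of 50.8, 94.4 and 43.7 that varied widely against 16.7, 27.0 and 17.3. Chromosome 17 (46021015 to 46024030) fell by 1.10, from 87.5, 108 and 142 to 62.7, 39.5 and 44.8.

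The last 2 falls were moderate. Chromosome 14 (46635025 to 46638236), 1 hotspot in every library, fell by 1.00, from 51.9, 48.7 and 37.5 to 27.8, 12.4 and 26.9. Chromosome 5 (152207809 to 152212078) fell by 0.98, from 45.6, 37.5 and 48.5 to 23.5, 16.0 and 22.7, but when hotspots within 150 bp were merged, it became part of a larger region whose change did not pass (-0.37, limma adjusted p = 0.21). Of the 10 strongest falls, 6 were wide in the fed group only, 3 in each group alone and 1 in the fasted group only.

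The widest region of all, on chromosome 2 (172977637 to 172986650, 9014 bp), showed a change of average density without a passing change of the maximum. Its maximum was 161, 151 and 151 in fed and 185, 156 and 197 in fasted livers (log2 change 0.29, limma adjusted p = 0.078; 0.33 and 0.045 without fasted replicate 2). Average density was 24.8, 26.1 and 24.7 in fed and 47.9, 37.6 and 46.8 in fasted livers, a log2 change of 0.85 (SE 0.13, limma adjusted p = 0.00026), and no fasted library came near the fed values. The tallest hotspot sat at the left end in the 5 libraries that split the region. The right-hand hotspot had a maximum of 37.1, 44.2 and 55.6 in fed livers and 143 and 146 in fasted replicates 1 and 3, while fasted replicate 2 joined everything into 1 hotspot of 9014 bp. Taken from the tallest hotspot alone, the average density gave a change of -0.16 (limma adjusted p = 0.45), and that hotspot was 1326, 1969 and 2141 bp long in fed and 4402, 9014 and 4423 bp in fasted livers, so the 2 averages are over different lengths.

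**Figure D5:**
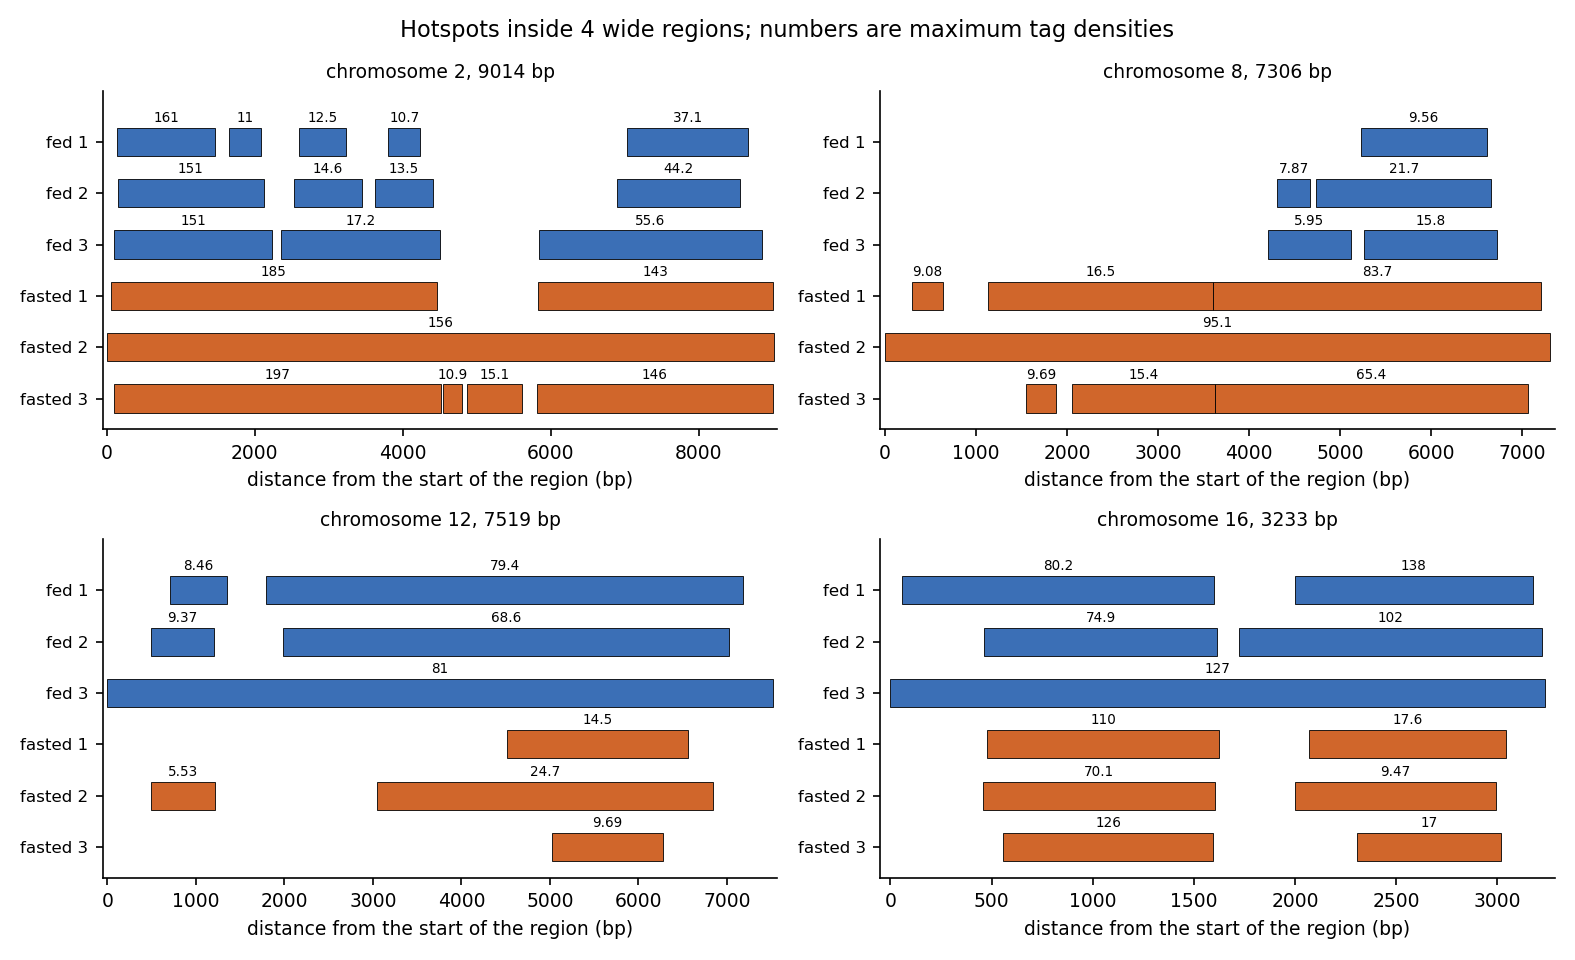
Hotspots (bars) of each library inside 4 wide regions, drawn by distance from the region's start in bp, fed libraries in blue and fasted in orange, with each hotspot's maximum tag density above it. On chromosome 2 the left-hand hotspot is tall in all libraries and the right-hand one is 37.1 to 55.6 in fed and 143 or 146 in fasted livers; on chromosome 16 the right-hand hotspot is 138 and 102 in fed replicates 1 and 2 and 9.47 to 17.6 in fasted livers.

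On chromosome 14 (41925860 to 41929209, 3350 bp) the average passed downward. Its average density fell from 33.8, 28.7 and 28.2 to 11.7, 8.86 and 17.2 (log2 change -1.18, SE 0.17, limma adjusted p = 0.00014). The maximum was 87.5, 71.2 and 71.9 in fed and 44.3, 30.2 and 78.4 in fasted livers, and this change missed the threshold narrowly (-0.61, limma adjusted p = 0.052). It passed in 8 of the alternatives, among them the replicate block (limma adjusted p = 0.044). In fed livers a single hotspot of 886, 891 and 898 bp was called, and in fasted livers hotspots of low density further along brought the covered length to 2235, 3294 and 2167 bp. The fed hotspots, 898 bp long at most and all at the left end, could not reach 3000 bp, so this region counted as wide only through the fasted libraries. Its longer fasted coverage was therefore fixed by the rule. That longer coverage of lower density enters the average, so the fall of the average is not independent of the rule. Without fasted replicate 3 the change of the maximum was -0.91 (limma adjusted p = 0.0017).

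Changes inside a region could cancel in its single value. To see them, segments covered by every library were used as sub-sites where a separate hotspot gave each its own maximum in at least 2 libraries of each group, a choice made after the values were seen and described without a test. This was possible for 191 wide regions with 414 sub-sites. The log2 changes (centred as above) of the sub-sites of 1 region differed by a median of 0.32, by 1 or more in 17 regions and by 3.33 at most, and differed in sign in 80, which includes changes close to 0. In 16 of the 191, on the centred log2 scale, every fasted value lay above the fed ones at 1 sub-site and below them at another, with as few as 2 values per group. Over all shared regions, with all libraries used, every fasted maximum lay above every fed one in 17.4% and below in 14.3%. With fewer values, such separation arises more easily without any change. How many of the 16 arose that way was not tested, so this count is not read as changes that cancel.

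The widest gap was on chromosome 16 (18411044 to 18414276, 3233 bp), 1580 bp past the fallen region of that chromosome described above. Its left-hand sub-site had maxima of 80.2 and 74.9 in fed replicates 1 and 2 and 110.08, 70.1 and 126 in fasted livers, while the right-hand one had 138 and 102 in fed and 17.6, 9.47 and 17.0 in fasted livers. As deposited, the left-hand values of the groups overlapped and the right-hand ones did not. The value of the whole region did not pass (log2 change -0.21, limma adjusted p = 0.43), and the tallest point was on the right in fed replicates 1 and 2 and on the left in the fasted libraries. Fed replicate 3 joined both into 1 hotspot and gave no separate values.

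Similar layouts were seen elsewhere. On chromosome 8 (41970699, 3064 bp wide) the first sub-site went from 73.6, 75.7 and 51.7 in fed to 47.1 and 48.4 in fasted livers, and the second from 39.4, 31.8 and 26.8 to 57.6 and 57.8. On chromosome 16 (23980697, 6333 bp wide) the first went from 60.7 and 39.7 to 15.3, 15.4 and 17.6, while the second was 61.8 and 67.1 in fed and 58.7 and 60.5 in fasted livers. On chromosome 8 (26362842, 3297 bp wide) the second went from 19.1, 16.9 and 16.5 to 8.23, 6.12 and 8.48 beside a first sub-site of 46.1 to 59.99 in all 6 libraries. None of these 3 regions passed the test on its single maximum, but 20 of the 191 regions with sub-sites did. Among those 20 was chromosome 5 (123247663, 6303 bp wide). Its single maximum rose by 0.61 (limma adjusted p = 0.0093), while the lowest change of a sub-site was -1.20.

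Numbers of hotspots differed between the groups without overlap in few wide regions. Every fasted library had more hotspots than every fed one in 11 regions and fewer in 9, beside 0.125% and 0.139% of all shared regions, 87.1% of which held 1 hotspot in every library. All 9 with fewer were wide in the fasted group only. Of the 316 regions wide in each group alone, 2 had more and 0 had fewer. On chromosome 12 (110092284 to 110097803, 5520 bp) 2 hotspots in each fed library became 1 in each fasted library, with 1710, 2983 and 2073 bp covered in fed and 4819, 5520 and 5231 bp in fasted livers. No merged stretch of its fed hotspots exceeded 1957 bp, so it counted as wide only through the fasted libraries. Its longer fasted coverage was therefore fixed by the rule. Its maximum density rose from 62.9, 50.2 and 50.4 to 81.1, 83.5 and 90.5, a log2 change of 0.72 (SE 0.15, limma adjusted p = 0.0019). That p-value takes no account of the region's entry through the fasted libraries. On chromosome 19 (5836591 to 5844222, 7632 bp, among the widest) the number went from 2, 1 and 1 to 3, 4 and 3 and the covered length from 6408, 6902 and 7543 bp to 4558, 5774 and 5089 bp, while the maximum, 27.2, 29.6 and 34.6 in fed and 25.2, 20.9 and 24.5 in fasted livers, did not pass. Over all wide regions, covered length was greater in every fasted library in 69 (9.62%) and smaller in 34 (4.74%), against 9.63% and 6.46% of all shared regions. Of the 69, 50 were wide in the fasted group only, and of the 34, 24 were wide in the fed group only. These counts were thus partly fixed by the rule, and nothing is read from them. Among the 316 regions wide in each group alone they were 14 (4.43%) and 9 (2.85%).

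The other widest regions showed no passing change of either density. Chromosome 11 (117684669 to 117692371, 7703 bp) had maxima of 85.7, 71.6 and 63.9 in fed and 77.5, 58.02 and 105 in fasted livers. Chromosome 17 (71196369 to 71203918, 7550 bp) had 89.4, 85.4 and 69.6 and then 80.3, 66.3 and 87.2. The groups overlapped in these, as on chromosome 11 (98901059 to 98907619, 6561 bp), with 107 to 111 in 4 libraries and 84.3 and 136 in fasted replicates 2 and 3. On chromosome 5 (117564663 to 117572200, 7538 bp) the range was 92.005 to 115 in fed and 94.7 to 139.5 in fasted livers. Chromosome 12 (58641700 to 58648347, 6648 bp) had 40.1 to 47.1 in fed and 50.2 to 60.7 in fasted livers, and chromosome 4 (150241962 to 150248813, 6852 bp) had 53.2 to 80.6 and 85.4 to 90.8. In these last 2 every fasted library lay above every fed one, although neither passed the test.

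The 5 densest wide regions differed in how they changed. Whether their tags came from sequence present in many copies was not tested, since no sequence was used, so their density is not read as opening alone. Chromosome 17 (3081297 to 3084843, 3547 bp) was the highest, at 801, 662.5 and 664 in fed and 789.8, 768 and 819 in fasted livers, and fed replicate 1 lay inside the fasted range. Its log2 change of 0.24 (SE 0.07, limma adjusted p = 0.018) was lost in 7 of the alternatives and was 0.00 with quantile normalization. It was the tallest wide region in every library, and quantile normalization gives equal values to equal ranks. That refit is among the 7 and is not read against the rise. Chromosome 11 (3043959 to 3049109, 5151 bp) fell, from 523, 476 and 484 to 279, 326 and 393, a log2 change of -0.50 (SE 0.10, limma adjusted p = 0.00087, but 0.073 without a mean-variance trend), and its average density fell by 0.73. Chromosome 17 (39979646 to 39985968, 6323 bp) was 1 hotspot in every library, with 362 to 412 in fed and 346 to 503 in fasted livers, and lay 957092 bp from the nearest other shared region. Chromosome 1 (90172623 to 90176827) and chromosome 11 (75272215 to 75277050) had 254 to 321 in fed and 283 to 371 in fasted livers, and their maxima did not pass. The average density of the former passed (0.29, limma adjusted p = 0.042) but not in 12 of the alternatives.

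Wide regions lay among other open regions. The nearest other shared region was a median of 3315 bp away, against 5118.5 bp for the nearest narrower regions in height, and within 20 kb there were 2.43 others on average, against 2.22. For 202 wide regions a neighbour lay less than 1 kb away, and for 115 none lay within 20 kb. Around the wide regions that rose, 59 of 200 shared regions within 20 kb rose as well (29.5%) and 6 fell (3.00%). Around those that fell, 14 of 87 fell (16.1%) and 6 rose (6.90%). Around the 616 that did not pass, 144 of 1413 rose (10.2%) and 122 fell (8.63%), and over all shared regions 8.25% rose and 7.73% fell. These neighbours share the libraries with the wide regions, so the counts describe how changes lay along the genome.

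Every chromosome from 1 to 19 carried wide regions. Their share of the shared regions ran from 0.9003% on chromosome 15 (14 of 1555) to 2.73% on chromosome 19 (36 of 1317), and was 2.51% on chromosome 11 (63 of 2505). Together they made up 2.69 Mb, or 5.98% of the bases in shared regions. Pairs of wide regions within 50 kb of each other numbered 41.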

How the data were processed

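DNase-seq of liver gave 3 fed and 3 fasted libraries, and each library has its own deposited list of hotspots, so hotspots were called per sample. CASAVA 1.8 and the build mm9 are named in the submitters' processing notes. For aligner and caller, the sources used here give no name. Per the file headers, hotspots come with a maximum and an average tag density, which are a coverage signal on a scale the sources used here do not give. The z-score is a score deposited by the authors for each hotspot and was not used. A p-value for each hotspot, also deposited by the authors, was not used either. The lists hold called hotspots only, so a region absent from a list has an unknown density.

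Hotspots of the 6 lists were merged at an overlap of 1 bp on chromosomes 1 to 19. Per library, a region's maximum density is that of its tallest hotspot, and the average density is the mean of their averages weighted by hotspot length. log2(density + 1), centred on each library's median over the regions called in all 6 lists, was tested in R 4.3.3 with limma 3.58.1, using eBayes and its mean-variance trend, on all 36088 such regions, with Benjamini-Hochberg adjustment and a threshold of 0.05. The log2 ratio of average to maximum density was tested in the same way. Every maximum was a whole multiple of a step of its library (100% within 0.05 step). If 1 step is 1 tag, relative depth ran from 1.00 to 1.90. The fitting step was checked on simulated data. Each wide region was set beside the 50 narrower shared regions nearest to it in mean log2 maximum density. Tables were made in Python 3.11.15 with pandas 2.3.3 and numpy 2.4.6, and plots with matplotlib 3.10.9.

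Regions named by rule were the 10 widest, the 10 with the largest rise and the 10 with the largest fall of maximum density among those past the threshold with groups that do not overlap, and the same 5 each way for average density. Also named were the 5 densest, the 5 with the highest and the 5 with the lowest ratio of average to maximum, and the regions next to the width limit. The wide regions, the rule and the tests were chosen with earlier results of these data known. Replicate numbers did not pair the libraries (correlations of same-numbered libraries from -0.17 to -0.03 for maximum density). The alternatives were other pseudocounts, scalings, filters, variance models, merging distances, widths and list lengths, depth as a covariate, the replicate block, and leaving out libraries. Chosen after seeing the data were the fits without both deepest libraries and with quantile scaling in the comparison with narrower regions, and the restrictions to regions whose tallest hotspots share a base or that are wide from each group alone. Gene names and sequences were not used here.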

Additional observations from a re-analysis of the deposited data

Results flagged for a closer look

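Wide regions also occurred on the sex chromosomes, outside the chromosomes 1 to 19 that were compared, where no test was run. On chromosome X, 22 of 956 regions called in all 6 libraries were at least 3000 bp wide (2.30%), 3385.5 bp in the median and 5447 bp at most. Their median maximum density was 34.4, 29.4 and 29.6 in the fed libraries and 30.4, 31.5 and 34.5 in the fasted libraries, and their median ratio of average to maximum was 0.259. On chromosome Y, 4 of 61 such regions were that wide (6.56%), 3829.5 bp in the median and 6214 bp at most. Their median maximum density was 30.2, 35.6 and 26.3 in the fed libraries and 27.9, 31.7 and 30.6 in the fasted libraries.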

How the results depend on the processing

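Counts of wide regions whose maximum density rose and fell (71 and 30) became 25 and 11 at a width of at least 4000 bp, 133 and 69 at 2500 bp, and 23 and 13 among those wide in each group alone, where other regions were counted. Rises were 47 without centring, 46 in the upper 50% of regions and 47 without a mean-variance trend, and falls were 46 of 1035 regions with hotspots merged within 150 bp. The fit of the upper 50%, here and for average density, held 660 wide regions. Leaving out each replicate gave 49 to 78 rises and 17 to 28 falls. For average density (55 and 23) the counts were 19 and 8 at 4000 bp, 102 and 53 at 2500 bp, and 18 and 8 for regions wide in each group alone. Its rises were 29 without centring and 33 in the upper 50%, where falls were 41, and falls were 35 with quantile normalization and 39 with merging within 150 bp. Leaving out each replicate gave 36 to 51 rises, with the 36 reached without fed replicate 1 and without fed replicate 3, and 16 to 29 falls. Changes of the ratio stayed at 0 except for 1 rise at 2500 bp, 1 without the trend and 1 with merging within 150 bp, and 1 fall at 2500 bp, 1 with merging and 1 with the tallest hotspot alone. The median difference from narrower regions in the change of maximum density was 0.0857 against all of them, 0.0292 when matched on average density, and -0.00115 to 0.0217 leaving out each replicate. For average density it was 0.0748 against all narrower regions and -0.02909 to 0.01798 leaving out each replicate. The replicate block gave 63 rises and 29 falls of maximum density, 52 and 22 of average density and 0 of the ratio. The cause of these shifts was not tested. Among called changes of named regions, 361 of 371 refits of maximum density and 403 of 429 of average density kept direction and threshold, and 1 changed sign, the average density of the chromosome 2 region at 172977637 (-0.16 from its tallest hotspot). Named regions were picked by their changes, so their stability in refits says little. Weak hotspots carry few tags, which limits what can be seen at the edges of regions.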
